A study of Mus musculus with 18 samples.

Results

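The transcripts described here encode 9 protein kinases whose proteins are known clients of HSP90, the chaperone that 17-DMAG blocks: the receptor tyrosine kinases Egfr, Erbb2, Erbb3, Met and Igf1r, the survival kinases Akt1 and Akt2, the cell cycle kinase Cdk4 and the tyrosine kinase Src. They were taken by gene symbol from a table of 24421 symbols, and all 9 were among the 13507 genes that were abundant enough to test. The cells were 4T1, a mammary carcinoma line of BALB/cfC3H mice, and 4T1R1 and 4T1R2, 2 populations of 4T1 that had survived rounds of 17-DMAG exposure and been expanded without the drug. All are wild type by their labels, and each resistant population is 1 separate selection, with no cloning step given. RNA was sequenced from each population untreated and after 1.5 µM 17-DMAG, a benzoquinone ansamycin derived from geldanamycin, in 3 libraries per group, 18 libraries in 6 groups. The sample records give 48 h of drug before RNA extraction and the series description gives 2 h, so the duration behind every treated value is uncertain between these 2 times. The selection is likewise given as 3 rounds of 1.5 µM for 48 h in the sample records and as cycles of 1 µg/ml for 24 h in the series description.

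HSP90, with the adaptor Cdc37, holds immature or unstable kinases in a form that can fold and bind their substrates. When HSP90 is blocked, such kinases are ubiquitinated, by Stub1 among other ligases, and degraded, which is how HSP90 inhibitors are known to lower ERBB2 and AKT in breast cancer cells. That loss occurs in the protein. The values below are levels of the transcripts and hold no measure of the proteins.

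Totals ran from 23354461 to 55094630 counts per library. The deposited counts of 1 to 12 were even for 65.6% to 70.8% of genes in every library, which is what counting both mates of each read pair would give, and a low count then stands for fewer fragments. In 4T1 given 17-DMAG, replicates 1 and 2 differed less than any other pair of libraries of one condition. The chi-square per gene was 1.1 for this pair and 2.04 to 2.22 for the 17 other pairs. Replicates 1 and 2 were therefore joined as 1 sample, which leaves n = 2 in that group and 17 libraries overall. Library names of 4T1R1 are numbered in a series of their own, so whether 4T1R1 differs from 4T1 as a population or as a set of libraries cannot be told apart. Values are normalized counts, which are counts scaled to a common depth of 31030060, given as mean ± SD over libraries. Hspa1b, the stress-inducible HSP70 that rises when HSP90 is blocked, went from 491.4 ± 24.7 to 16940 ± 225 normalized counts in 4T1 (n = 3 and 2), from 466.1 ± 23.7 to 4358 ± 99.7 in 4T1R1 and from 676.8 ± 23.5 to 3310 ± 194 in 4T1R2 (n = 3 each). The luminal markers Krt8, Krt18 and Cdh1 were abundant in all libraries, basal Krt14 had 76 to 415 counts, and basal Krt5 had 0 to 2 and alveolar Elf5 0 to 9. Of 12 markers of other cells, Cd68 and Pdgfra had over 100 counts in every library, and defining markers of leukocytes (Ptprc, 4 to 19 counts), T cells (Cd3e, 0 to 2), endothelium (Pecam1, 2 to 18) and fibroblasts (Dcn, 0 to 2) were at or near 0.

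The 9 genes lie on 6 mouse chromosomes (GRCm38, GENCODE vM21 annotation). Egfr is at chr11:16752203-16918158, Erbb2 at chr11:98412470-98437716 and Erbb3 at chr10:128567523-128589652, the last on the minus strand. Met is at chr6:17463800-17573980, Igf1r at chr7:67952827-68233668, Akt1 at chr12:112653821-112674884 on the minus strand, Akt2 at chr7:27591552-27640826, Cdk4 at chr10:127063534-127067920 and Src at chr2:157418444-157471862. Cdk4 shares 641 exonic bases, 19.7% of its exon length, with Tspan31 on the other strand, and Erbb2 shares 9 bases with Mien1. Use of strand in counting is not given in the sources used here, so reads in the shared bases may have been lost or misassigned.

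RefSeq promoter windows (GRCm38.p6, 250 bases before to 50 bases after a transcription start) were at hand for 8 of the 9 genes, 12 windows in all, with none for Erbb3. Erbb2 and Igf1r are shown because they changed in opposite directions after 17-DMAG in 4T1. Each is the plus strand of the 250 bases before the RefSeq start, at chr11:98412234-98412483 and chr7:67952007-67952256. The full Igf1r window ends at 67952306, ahead of the GENCODE start of the gene at 67952827, so its RefSeq and GENCODE starts differ. Capitals mark a CCAAT box in Erbb2 and the GC boxes GGGCGG in Igf1r.
Erbb2: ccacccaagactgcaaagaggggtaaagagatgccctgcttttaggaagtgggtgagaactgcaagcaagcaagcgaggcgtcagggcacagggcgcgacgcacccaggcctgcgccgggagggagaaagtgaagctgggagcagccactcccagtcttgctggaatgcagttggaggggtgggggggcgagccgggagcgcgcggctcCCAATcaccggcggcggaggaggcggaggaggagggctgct
Igf1r: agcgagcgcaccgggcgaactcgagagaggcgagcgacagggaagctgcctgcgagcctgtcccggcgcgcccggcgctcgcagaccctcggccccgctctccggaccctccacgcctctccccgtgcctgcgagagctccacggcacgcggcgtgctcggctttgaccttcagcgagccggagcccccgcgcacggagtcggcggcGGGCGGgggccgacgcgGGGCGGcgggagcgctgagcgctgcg
On both strands of the 300 bases, Erbb2 held CCAAT, 41 bases before the start, and no GC box, and Igf1r held 2 GC boxes and no CCAAT box. That box occurs in 37.4% and GGGCGG in 35.7% of all 32851 promoter windows. Of the other members, GGGCGG was in windows of Akt1 (5 matches), Cdk4 (3), Met (3), Src (2), Egfr (1) and Akt2 (1). CCAAT was in 1 Akt2 window. A link of either box to the direction of change was not tested. The windows of Erbb2 and Igf1r were rich in G and C, with 66.0% and 76.0% against a median of 52.7% over all promoters. Src had 82.3%, Met 75.7%, Cdk4 67.0% and Egfr 62.3%, and the windows of Akt1 had 52.3% and 79.7%. Those of Akt2 ran from 50.0% to 58.7%. The short heat shock element patterns GAANNTTC and TTCNNGAA, found in 7.86% and 8.52% of all windows, were in none of the 12. The FOXO pattern GTAAACA (3.65% of all windows) was in 1 Akt1 window, and the E-box CACGTG (7.15%) occurred 4 times in Cdk4 and 1 time in Met. A match is a match of letters and not a site of binding.

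The 9 transcripts differed in level by over 3 orders of magnitude. In untreated 4T1, Akt1 had 4690 ± 47.1 normalized counts per kb of exon, Cdk4 2790 ± 96.4, Met 1000 ± 9.82 and Src 906 ± 22.3 (SD, n = 3 here and below in this paragraph). Akt2 followed at 401 ± 9.08, Erbb2 at 355 ± 12.1 and Igf1r at 345 ± 8.86, all per kb. The libraries of Erbb2 (346 to 369 per kb) overlapped those of Igf1r (335 to 351), so these neighbours in the order did not differ beyond their spread. In these bulk libraries fewer cells with a transcript and less of it per cell cannot be told apart. Erbb3 stood at 55.3 ± 4.98 and Egfr at 1.16 ± 0.338 per kb. In untreated 4T1R1 and 4T1R2 the order was the same but for Igf1r above Erbb2, at 369 ± 11.6 against 329 ± 15.3 per kb in 4T1R1 and 351 ± 13.7 against 286 ± 2.11 in 4T1R2. The libraries of Igf1r (356 to 377 per kb) then overlapped those of Akt2 (373 to 409) in 4T1R1. Thus Akt1 led the kinases in all 3 untreated populations, and Egfr, with 2 to 21 deposited counts in any library, was barely detected in any of them.

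**Figure D1:**
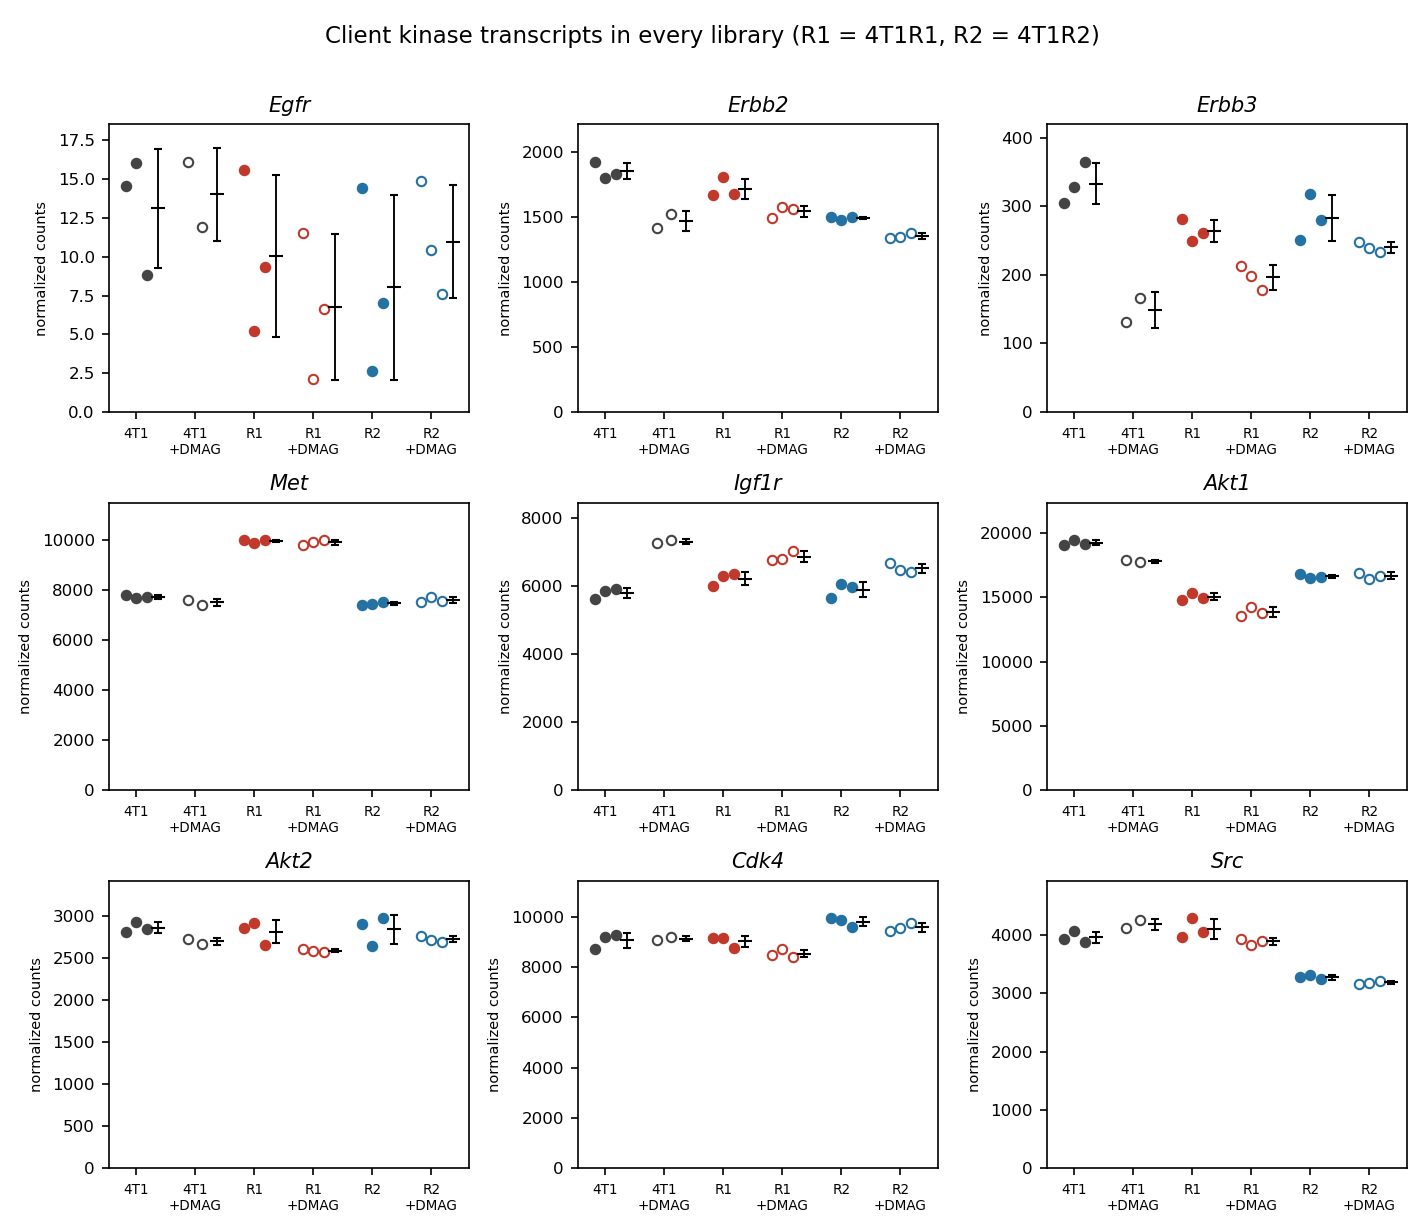
Normalized counts of the 9 client kinase transcripts (vertical axes, linear and from 0) in the 17 libraries, by population and treatment, with untreated libraries as filled and 17-DMAG-treated ones as open points, and mean ± SD in black (n = 2 in treated 4T1, otherwise 3). Erbb3 falls from 305.2 to 364.5 to 130.5 and 166.7 after 17-DMAG in 4T1, and Met stands apart in 4T1R1, at 9795 to 9977 in both treatments.

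What 17-DMAG does to these transcripts was asked in each population by comparing treated with untreated libraries. In 4T1, Erbb3, Erbb2 and Akt1 fell and Igf1r rose, and Met, Akt2, Cdk4, Src and Egfr did not pass the test. In 4T1R1 the same 4 genes changed in the same directions and Akt2 and Cdk4 fell as well. In 4T1R2 only Igf1r passed, again upward. By edgeR's quasi-likelihood test at a Benjamini-Hochberg adjusted p under 0.05, 4 of 9 members were thus called in 4T1, 6 in 4T1R1 and 1 in 4T1R2, where 36.4%, 28.2% and 10.5% of all genes tested were called. The 3 falls in 4T1 stand beside 18% of all genes called lower and the 1 rise beside 18.4% called higher. In 4T1R1, 14.3% of all genes were called lower, and 13.9% higher. In 4T1R2 these shares were 4.35% and 6.17%. For the 9 the median log2 fold change in 4T1 was -0.040, against 0 over all genes. It was -0.12 against -0.0086 in 4T1R1, and -0.035 against -0.0019 in 4T1R2. Scaling by total counts alone in place of TMM moved the median of all genes in 4T1 by -0.115 (log2), and then 1 member rose and 6 fell in 4T1, 1 rose and 2 fell in 4T1R1, and in 4T1R2 Erbb2 fell and Igf1r no longer passed. Over all genes the split in 4T1 was 1194 higher and 4323 lower under that scaling, against 2482 and 2430. The ribosomal RNA precursor Rn45s took 10.7% to 11.4% of the counts in untreated and 13.2% to 14.1% in treated libraries of 4T1, 13.4% to 15.6% and 9.54% to 12.2% in 4T1R1, and 10.9% to 11.8% and 10.6% to 13.1% in 4T1R2, but without it in the table the members called in the 3 responses were the same. The summed level of the 12 markers of other cells was 856 to 959 normalized counts in untreated and 574 to 621 in treated 4T1, and Pdgfra was the 1 called of the 6 tested. It was 1080 to 1120 and 913 to 997 in 4T1R1, and 1130 to 1250 and 980 to 1130 in 4T1R2. Pdgfra had 338 to 1025 deposited counts per library and Cd68 114 to 242, and the others of the 12 reached at most 21. Pdgfra is also among the further client kinases below. The part of these markers in the members' response was not tested.

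Erbb3, the kinase-impaired receptor for neuregulins that signals by pairing with ERBB2, had the largest response of the 9 in 4T1. Its level in 4T1 was 305.2, 327.7 and 364.5 normalized counts untreated and 130.5 and 166.7 after 17-DMAG. The drug-treated libraries of 4T1 were all below the untreated ones, with no overlap. The transcript fell by 55.8%, a log2 fold change of -1.18 ± 0.131 (SE, edgeR adjusted p = 9.4e-10). In 4T1R1 the untreated libraries had 281.2, 249.8 and 260.6 and the treated ones 212.3, 198.3 and 177.4, again without overlap. This smaller fall had a log2 fold change of -0.43 ± 0.114 (edgeR adjusted p = 0.00402). In 4T1R2 the untreated libraries had 250.9, 317.6 and 280.1 and the treated ones 247.9, 239.4 and 232.5. These groups also did not overlap, but the difference did not pass the test, at -0.23 with a 95% interval of -0.45 to -0.0047 (edgeR adjusted p = 0.205). Groups did not overlap for 56.5% of all genes tested in 4T1, 39% in 4T1R1 and 26.5% in 4T1R2.

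Erbb2, the ERBB receptor with no ligand of its own, was among the transcripts that fell. In 4T1 it went from 1923, 1803 and 1829 normalized counts to 1413 and 1521, and no treated library reached an untreated one. It fell by 20.9%, a log2 fold change of -0.34 ± 0.0528 (edgeR adjusted p = 1.48e-06). In 4T1R1 it went from 1665, 1807 and 1674 to 1492, 1576 and 1557, and in 4T1R2 from 1499, 1479 and 1497 to 1339, 1342 and 1376. Both steps were small and without overlap, a log2 fold change of -0.15 ± 0.0473 in 4T1R1 (edgeR adjusted p = 0.012) and of -0.14 ± 0.0484 in 4T1R2, where it did not pass (edgeR adjusted p = 0.0521). The call in 4T1R1 was lost without untreated replicate 2 of 4T1R1 (-0.12, edgeR adjusted p = 0.103) or treated replicate 1 (-0.13, edgeR adjusted p = 0.0748), or with total counts alone (-0.12, edgeR adjusted p = 0.0568). The call in 4T1R2 was gained with total counts alone (-0.19, edgeR adjusted p = 0.00754), with 18 separate libraries, with at least 10 counts in every library, or without untreated replicate 1 of 4T1 (-0.14, edgeR adjusted p = 0.0488) or untreated replicate 2 of 4T1R1 (-0.14, edgeR adjusted p = 0.0377). Egfr, the receptor for EGF, gave no difference in any comparison at this depth. Its 95% interval in 4T1, from -1.03 to 1.26, allows a change of over 2-fold in either direction.

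Igf1r, the receptor for insulin-like growth factors, rose in all 3 populations. In 4T1 the untreated libraries had 5620, 5854 and 5896 normalized counts and the treated ones 7245 and 7342. In 4T1R1 they had 5981, 6293 and 6337 against 6744, 6781 and 7033, and in 4T1R2 5628, 6065 and 5970 against 6655, 6478 and 6399. Every treated library was above every untreated library of its population. The level rose by 25.9% in 4T1 (log2 fold change 0.33 ± 0.0361, edgeR adjusted p = 5.12e-10), 10.5% in 4T1R1 (0.14 ± 0.0326, edgeR adjusted p = 0.000757) and 10.7% in 4T1R2 (0.15 ± 0.0328, edgeR adjusted p = 0.00196). The call in 4T1R2 was lost with scaling by total counts alone (0.099, edgeR adjusted p = 0.0598). Met, the receptor for hepatocyte growth factor, had log2 fold changes of -0.040, -0.0084 and 0.027 in 4T1, 4T1R1 and 4T1R2. The 95% intervals of these ran from -0.10 to 0.022 in 4T1, from -0.063 to 0.046 in 4T1R1 and from -0.029 to 0.082 in 4T1R2. Under total counts alone the value in 4T1 was -0.155 and passed the test.

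Of the cytoplasmic kinases Akt1 fell in 4T1 and 4T1R1, and Akt2 and Cdk4 fell in 4T1R1. Akt1, the AKT isoform with the highest level here, went from 19080, 19450 and 19170 normalized counts to 17900 and 17730 in 4T1 and from 14790, 15320 and 14960 to 13510, 14260 and 13750 in 4T1R1. These groups did not overlap, and the log2 fold changes were -0.11 ± 0.0286 (edgeR adjusted p = 0.00191) and -0.12 ± 0.0258 (edgeR adjusted p = 0.000449). In 4T1R2 the untreated libraries (16540 to 16780) lay within the range of the treated ones (16400 to 16920), with a log2 fold change of 0.0033 ± 0.0256. Akt2, the isoform best known for insulin signalling, fell in 4T1R1 (-0.12 ± 0.0413, edgeR adjusted p = 0.0288), with values of -0.083 in 4T1 and -0.063 in 4T1R2 that did not pass. Under total counts alone the value in 4T1 was -0.20 and passed (edgeR adjusted p = 0.000695). Cdk4, which pairs with D-type cyclins to phosphorylate RB1, fell by 5.46% in 4T1R1 (-0.081 ± 0.0295, edgeR adjusted p = 0.0354). Both calls were lost in a fit of only the groups compared and with total counts alone. The Akt2 call was also lost without any 1 of 5 libraries of 4T1R1, all but untreated replicate 3 (edgeR adjusted p = 0.0557 to 0.144), and the Cdk4 call without untreated replicate 1 or 2 or treated replicate 1 or 3 of 4T1R1 (edgeR adjusted p = 0.1 to 0.124). Tspan31, which shares bases with Cdk4, had a log2 fold change of -0.0954 in 4T1R1. Src, the founder of its kinase family, did not pass in any population, at 0.078 in 4T1, -0.074 in 4T1R1 and -0.041 in 4T1R2. The sign of the Cdk4 and Src values in 4T1 flipped under total counts alone, to -0.10 for Cdk4, which then passed, and to -0.037 for Src.

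**Figure D2:**
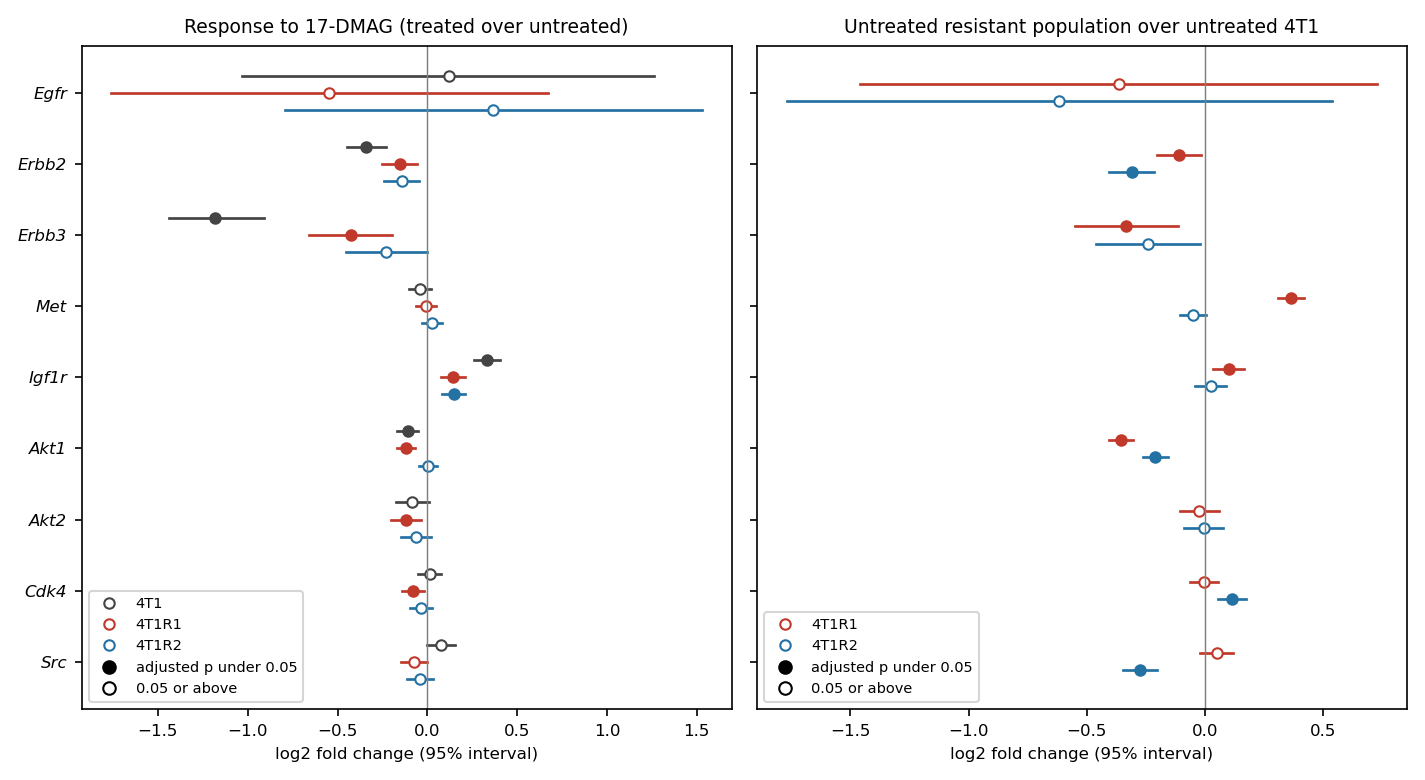
Log2 fold changes with 95% intervals of the 9 transcripts, for 17-DMAG-treated against untreated libraries in each population (left) and for the untreated resistant populations against untreated 4T1 (right). Filled points have an edgeR adjusted p under 0.05 and open points do not, and the filled points run from -1.18 (Erbb3) to 0.33 (Igf1r) on the left and from -0.36 (Akt1 in 4T1R1) to 0.37 (Met in 4T1R1) on the right.

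Whether the resistant populations respond otherwise than 4T1 was tested by the difference between responses, which share the 4T1 libraries. For Erbb3 the response in 4T1R1 was 0.75 ± 0.174 above that in 4T1 on the log2 scale (edgeR adjusted p = 0.00151), and in 4T1R2 0.95 ± 0.172 above it (edgeR adjusted p = 5.61e-05), so the fall was smaller in both. The Erbb3 difference for 4T1R1 was 0.57 (edgeR adjusted p = 0.054) when the joined replicates 1 and 2 of treated 4T1 were left out. For Igf1r the response was lower by 0.19 ± 0.0487 in 4T1R1 (edgeR adjusted p = 0.00421) and by 0.19 ± 0.0488 in 4T1R2 (edgeR adjusted p = 0.00494). The rise of Igf1r was thus smaller in both populations, but with scaling by total counts alone these differences were -0.040 and -0.12 and did not pass. Src differed in 4T1R1, by -0.15 ± 0.0519 (edgeR adjusted p = 0.0335), and Akt1 in 4T1R2, by 0.11 ± 0.0383 (edgeR adjusted p = 0.0332). The Src call was lost in a fit of only the groups compared, with total counts alone (-0.0033), or without untreated replicate 1 or 3 or treated replicate 3 of 4T1, or untreated replicate 2 or treated replicate 2 or 3 of 4T1R1 (-0.16 to -0.12, edgeR adjusted p = 0.0507 to 0.19). The Akt1 call was lost without untreated replicate 2 or 3, treated replicate 3 or the joined treated replicates of 4T1, or untreated replicate 2 or 3 or treated replicate 1 or 3 of 4T1R2 (0.10 to 0.12, edgeR adjusted p = 0.0509 to 0.111). For Erbb2 the differences were 0.18 ± 0.0708 in 4T1R1 (edgeR adjusted p = 0.0647) and 0.20 ± 0.0716 in 4T1R2 (edgeR adjusted p = 0.0508), both short of passing. Both Erbb2 differences passed with 18 separate libraries, with at least 10 counts in every library and with total counts alone. The one for 4T1R1 also passed without untreated replicate 2 of 4T1R1 (0.22, edgeR adjusted p = 0.0255), and that for 4T1R2 with RLE scaling, DESeq2, no Rn45s or only the groups compared, or without untreated replicate 2 or treated replicate 1 or 3 of 4T1 or untreated replicate 2 of 4T1R1 (0.20 to 0.26). In each difference 3 of 9 members were called. For 4T1R1 18.3% of all genes were called, 9.21% higher and 9.05% lower, and for 4T1R2 17.8%, 9.66% higher and 8.1% lower. Under total counts alone 4 were called in each, all upward (Erbb2, Erbb3, Met and Akt1). Most calls over all 13507 genes were upward too under that scaling. There were 3532 higher and 419 lower for 4T1R1, and 2091 higher and 632 lower for 4T1R2.

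How the resistant populations differ before drug was asked by comparing untreated libraries. In 4T1R1, Met and Igf1r were higher than in 4T1 and Akt1, Erbb3 and Erbb2 lower. In 4T1R2, Cdk4 was higher and Erbb2, Src and Akt1 lower. Thus 5 of 9 members were called in 4T1R1 and 4 in 4T1R2, beside 52.7% and 52.4% of all genes tested, with 25.2% and 25.6% called higher and 27.5% and 26.9% lower. Between 4T1R2 and 4T1R1, 5 of 9 were called beside 38.8% of all genes, 19.7% higher and 19% lower. Untreated groups did not overlap for 56.5% of all genes between 4T1R1 and 4T1, 57.2% between 4T1R2 and 4T1 and 46.1% between 4T1R2 and 4T1R1.

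Akt1 was lower in both untreated resistant populations. Against 19080 to 19450 normalized counts in 4T1, it had 14790 to 15320 in 4T1R1 and 16540 to 16780 in 4T1R2, and the 3 populations did not overlap. The log2 fold changes were -0.36 ± 0.0256 in 4T1R1 (edgeR adjusted p = 2.43e-15) and -0.21 ± 0.0256 in 4T1R2 (edgeR adjusted p = 4.18e-09). Erbb2 was lower by 19.4% in 4T1R2 (-0.31 ± 0.0477, edgeR adjusted p = 5.31e-07), with untreated libraries at 1479 to 1499 in 4T1R2 and 1803 to 1923 in 4T1. In 4T1R1 its untreated libraries overlapped those of 4T1 and the value of -0.11 ± 0.0466 (edgeR adjusted p = 0.0426) was past the threshold in this fit but not with DESeq2, no filter, no Rn45s or total counts alone, in a fit of these groups alone (-0.10), or without untreated replicate 1 or 3 of 4T1, untreated replicate 1 or 3 of 4T1R1, treated replicate 3 of 4T1 or untreated replicate 3 of 4T1R2 (edgeR adjusted p = 0.0501 to 0.189). Erbb3 was lower in 4T1R1 (-0.33 ± 0.108, edgeR adjusted p = 0.00837), a call lost without untreated replicate 3 of 4T1 (-0.26, edgeR adjusted p = 0.0723). In 4T1R2 the Erbb3 value of -0.24 did not pass (edgeR adjusted p = 0.0592), but did without untreated replicate 1 of 4T1 (-0.30, edgeR adjusted p = 0.0351) or untreated replicate 2 of 4T1R2 (-0.33, edgeR adjusted p = 0.0212).

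Met set 4T1R1 apart. It had 9967, 9875 and 9977 normalized counts in untreated 4T1R1, against 7802, 7658 and 7691 in 4T1 and 7401, 7434 and 7523 in 4T1R2. The 4T1R1 libraries were above all untreated libraries of the other populations, a log2 fold change of 0.37 ± 0.0271 over 4T1 (edgeR adjusted p = 6.4e-15), and 4T1R2 stood 0.42 ± 0.0273 below 4T1R1 (edgeR adjusted p = 5.72e-16). Src set 4T1R2 apart in the other direction, with 3271, 3317 and 3235 in untreated 4T1R2 against 3928, 4067 and 3879 in 4T1 and 3954, 4282 and 4049 in 4T1R1. It was lower than in 4T1 by 17.3% (-0.27 ± 0.0355, edgeR adjusted p = 1.68e-08). Cdk4 was higher in 4T1R2, at 9934, 9871 and 9607 against 8695, 9185 and 9278 in 4T1, without overlap (0.12 ± 0.0295, edgeR adjusted p = 0.00108). Igf1r was higher by 7.14% in 4T1R1 (0.10 ± 0.0328, edgeR adjusted p = 0.0099), a call lost without untreated replicate 1 of 4T1 (0.078, edgeR adjusted p = 0.0668) or untreated replicate 3 of 4T1R1 (0.084, edgeR adjusted p = 0.0515). Akt2 did not differ past the threshold, with 95% intervals of -0.11 to 0.058 in 4T1R1 and -0.090 to 0.077 in 4T1R2. The summed level of 11 mammary epithelial markers also differed between these untreated populations, at 77500 to 78600 normalized counts in 4T1, 52100 to 54600 in 4T1R1 and 60400 to 61600 in 4T1R2, and that of 12 markers of other cells was 856 to 959, 1080 to 1120 and 1130 to 1250. Their part in these differences was not tested.

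The genes around the receptors moved as follows. Beside the list counts after 17-DMAG here and below, 18.4% of all genes were called higher and 18% lower in 4T1. These shares were 13.9% and 14.3% in 4T1R1 and 6.17% and 4.35% in 4T1R2. Under total counts alone 1194 of all genes were higher and 4323 lower in 4T1, 2357 and 1316 in 4T1R1, and 367 and 1151 in 4T1R2. Of 14 listed ligands 9 were tested, and 2 rose and 2 fell in 4T1 after 17-DMAG (1 and 2 with scaling by total counts alone), 2 rose and 1 fell in 4T1R1, and 2 rose and 0 fell in 4T1R2. Nrg1, a neuregulin that binds ERBB3, rose in all 3 populations, by 0.64 ± 0.0629 in 4T1, 0.19 ± 0.0603 in 4T1R1 and 0.23 ± 0.064 in 4T1R2 on the log2 scale, although in 4T1R2 not under total counts alone. Areg, a ligand of EGFR, fell by 0.98 ± 0.0738 in 4T1 and by 0.30 ± 0.0632 in 4T1R1. Untreated, no ligand was called higher, and 4 were lower in 4T1R1 and 5 in 4T1R2, beside 27.5% and 26.9% of all genes. The lower ones included the EGFR ligands Hbegf (-0.78 and -1.21) and Tgfa (-0.87 and -0.84). Of 15 negative regulators tested, 1 rose and 8 fell in 4T1, 1 rose and 7 fell in 4T1R1, and 1 rose and 3 fell in 4T1R2 (0 and 9, 1 and 7, and 1 and 6 with total counts alone). Errfi1, an inhibitor of EGFR and ERBB2, fell by 0.85 ± 0.0356 in 4T1 and by 0.42 ± 0.0315 in 4T1R1, and Spry2, a feedback inhibitor of receptor signalling, fell by 1.07 ± 0.0577 and by 0.49 ± 0.0497. In 4T1R2, at -0.069 and -0.094, neither passed, although Errfi1 did under total counts alone. The regulators had median log2 fold changes of -0.16, -0.14 and -0.068 in 4T1, 4T1R1 and 4T1R2.

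Downstream of the receptors, 7 of 30 adaptors and PI3K-AKT genes rose and 10 fell in 4T1, 4 rose and 7 fell in 4T1R1, and 2 rose and 3 fell in 4T1R2. With total counts alone these splits were 3 and 16, 6 and 6, and 2 and 6. Irs1, the docking protein of the insulin and IGF1 receptors, rose in all 3 populations (0.41 ± 0.0513, 0.34 ± 0.046 and 0.20 ± 0.0472), as did Igf1r. Irs2 rose in 4T1 (0.76 ± 0.069), with values of 0.052 in 4T1R1 and -0.10 in 4T1R2 that did not pass. Of 17 tested genes known to be activated by FOXO factors when AKT is inhibited, 2 of them the members Erbb3 and Igf1r, 6 rose and 8 fell in 4T1, 1 rose and 8 fell in 4T1R1, and 1 rose and 5 fell in 4T1R2 (0 and 8 with total counts alone). Bcl6, a transcriptional repressor, and Bcl2l11, a proapoptotic protein, fell in all 3 populations, by 0.99 ± 0.074 and by 0.71 ± 0.0487 in 4T1. Irs2 and Igf1r, which are in the same list, rose in 4T1. Untreated, 12 of the 17 were higher and 1 lower in 4T1R1, and 11 were higher and 3 lower in 4T1R2. Of all genes, 25.2% and 25.6% were called higher and 27.5% and 26.9% lower.

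Of 11 CDK4 partners and inhibitors tested, 2 rose and 5 fell in 4T1, 4 rose and 3 fell in 4T1R1, and 3 rose and 3 fell in 4T1R2. With total counts alone 1 rose and 8 fell in 4T1. The cyclin Ccnd2 rose in all 3 populations (0.51 ± 0.0309, 0.28 ± 0.0281 and 0.28 ± 0.028) and the CDK inhibitor Cdkn1a fell in all 3 (-1.03 ± 0.122, -0.52 ± 0.103 and -0.56 ± 0.0994). Ccnd1 fell in 4T1 (-0.17 ± 0.0249) and rose in 4T1R1 (0.067 ± 0.0222) and 4T1R2 (0.13 ± 0.0222). Cdk6, the near relative of Cdk4, did not pass after drug, but untreated it was higher in 4T1R1 (1.19 ± 0.033) and lower in 4T1R2 (-0.38 ± 0.0351). In the SRC list 5 of 12 tested rose and 3 fell in 4T1 (4 and 6 with total counts alone), 2 rose and 2 fell in 4T1R1 (3 and 1), and 0 rose and 1 fell in 4T1R2. In 4T1 the Src relative Fyn rose (0.70 ± 0.0772) and Frk fell (-0.71 ± 0.0844), and Frk was also the gene that fell in 4T1R2 (-0.299).

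Of 38 further kinases known as HSP90 clients, 9 rose and 12 fell in 4T1, 6 rose and 8 fell in 4T1R1, and 2 rose and 3 fell in 4T1R2, with 5 and 27, 8 and 6, and 2 and 5 under total counts alone. Their median log2 fold change in 4T1 was -0.048, beside -0.040 in the 9 members. Fgfr2 (-0.86 ± 0.0385) and Pdgfra (-0.89 ± 0.0821) fell in 4T1, and Lats2, a kinase of the Hippo pathway, rose (0.91 ± 0.045). Of 18 genes of HSP90 and its kinase co-chaperones, 10 rose and 0 fell in 4T1 (9 and 2 with total counts alone), 11 rose and 1 fell in 4T1R1, and 9 rose and 0 fell in 4T1R2. Hsp90aa1 rose by 2.00 ± 0.0275, 1.40 ± 0.0253 and 0.88 ± 0.025 and Hsp90ab1 by 0.96 ± 0.0215, 0.65 ± 0.0196 and 0.44 ± 0.0196 in 4T1, 4T1R1 and 4T1R2. Cdc37, the kinase adaptor of HSP90, had 0.046 in 4T1 and -0.011 in 4T1R2, which did not pass, and fell in 4T1R1 (-0.13 ± 0.034). Stub1 did not pass in any of the 3 responses, with -0.060, -0.11 and -0.012.

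**Figure D3:**
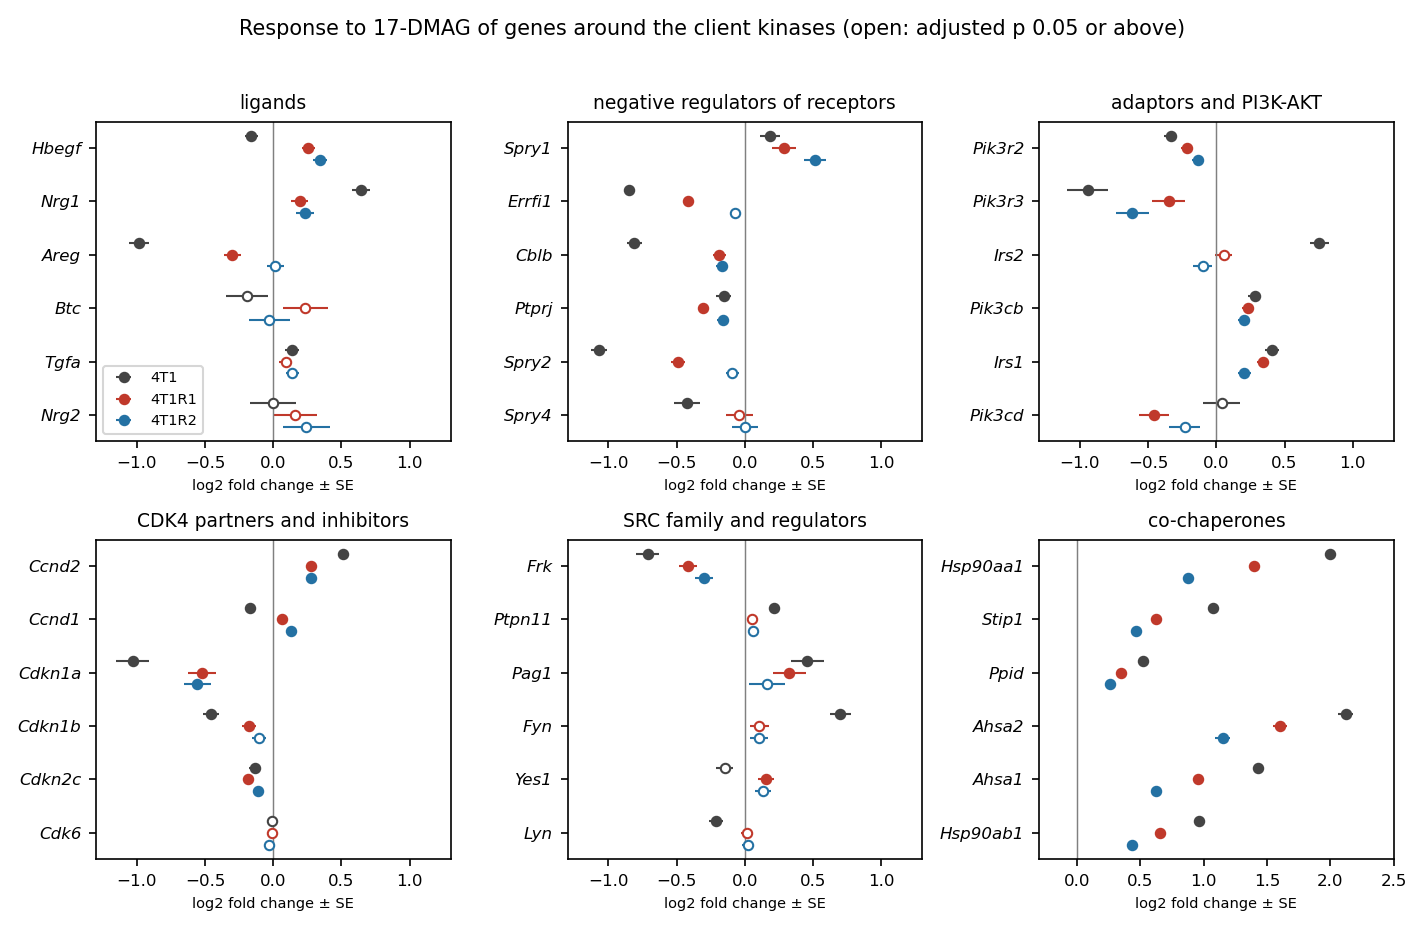
Log2 fold changes ± SE after 17-DMAG in 4T1 (grey), 4T1R1 (red) and 4T1R2 (blue) for up to 6 genes of each of 6 lists around the client kinases, with open points at an edgeR adjusted p of 0.05 or above. Co-chaperones are on a wider axis and lie to the right of 0 in all 3 populations, with Hsp90aa1 at 2.00, 1.40 and 0.88, and genes of the other lists lie on both sides.

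The profiles of the 9 across the 17 libraries, which share populations and treatments, were compared with those of 10642 other well-expressed genes by Pearson's r of log2 normalized counts, as a description. Met was most like Akap9 (r = 0.997) and Krit1 (r = 0.993), which were 1.42 and 1.61 higher in untreated 4T1R1 than in 4T1 on the log2 scale. Neither Akap9 nor Krit1 lies within 500 kb of Met. Of the 5 tested genes within 500 kb of Met, a set looked at after the values of Met were seen, Tes (0.13), Cav1 (1.57), Capza2 (0.112) and St7 (0.258) were higher in untreated 4T1R1 than in 4T1 and Cav2 (0.0826) did not pass, where 25.2% of all genes were called higher. In untreated 4T1R2, where Met was not higher than in 4T1 (-0.050), Cav1 (1.16), Capza2 (0.102) and St7 (0.215) were higher as well and Cav2 (-0.491) lower. Akt1 was most like Slc25a1 (0.987) and Lad1 (0.982), Src like Rnpepl1 (0.973) and A230050P20Rik (0.972), Igf1r like Gatsl3 (0.97) and Usp31 (0.963), and Erbb2 like Tcaf1 (0.955) and Padi2 (0.953). Erbb3 was most like Egr3 (0.941) and Mcm4 (0.938), and Akt2 like Dlgap4 (0.814) and Hist1h2be (0.807). Egfr, at few counts, reached only 0.714 with Ubac1 and 0.712 with Mrps14. Among the members themselves Erbb3 and Igf1r ran most oppositely (r = -0.872), followed by Met and Akt1 (r = -0.818).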

How the data were processed

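The authors depleted ribosomal RNA, made stranded libraries, converted base calls with bcl2fastq 2.20, aligned reads to mm10/GRCm38 with STAR and counted them per gene with featureCounts of Subread 1.6.2 (versions from the submitters' processing notes). They deposited whole-number counts without normalization. Use of strand and of reads with several matches is not given in the sources used here.

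Replicates 1 and 2 of 17-DMAG-treated 4T1 had a chi-square per gene of 1.1 over genes with 4 to 30 counts, against 2.04 to 2.22 in the 17 other pairs of a shared condition, and their counts were averaged. The series text calls the 3 libraries of a group biological replicates. The 17 libraries entered 1 fit of 6 groups in edgeR 4.0.16 (R 4.3.3) with filterByExpr, TMM scaling and the quasi-likelihood test, adjusted by Benjamini-Hochberg over 13507 genes with a threshold of 0.05. Sign and size are log2 fold changes with their SE, on a common biological coefficient of variation of 0.0376. Levels per kb used exon lengths of GENCODE vM21, and the profiles compared were those of genes whose mean reached 100 normalized counts in some group, with a pseudocount of 1. The genes most like Cdk4 are not reported here. From each gene list at most 6 genes were named, those called in most comparisons, ties by the largest change. The exceptions to this rule were Cdc37, Hsp90aa1, Hsp90ab1, Stub1, Hspa1b and the D cyclins, and the cell type markers given as a check of the cells. The 9 members and all lists were chosen with earlier results of these data known, so they are no independent support. The code was tested on simulated data. Alternatives were DESeq2 1.42.0, other scalings and filters, fits of only the groups compared, 18 separate libraries, the replicate number as a block, and each library left out. Figures used matplotlib 3.10.9. Depth and the number of libraries limit precision, and intervals are 95% intervals of the fit.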

Additional observations from a re-analysis of the deposited data

Results flagged for a closer look

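Of the 9 transcripts, 4 had a response to 17-DMAG that differed from that of 4T1 in at least 1 resistant population, by edgeR's quasi-likelihood test of the difference itself. In each difference 3 of the 9 were called, beside 18.3% of all genes tested for 4T1R1 and 17.8% for 4T1R2. For Erbb3 the log2 response was higher by 0.751 in 4T1R1 (edgeR adjusted p = 0.00151) and by 0.948 in 4T1R2 (edgeR adjusted p = 5.61e-05) than in 4T1, where it fell furthest. Igf1r differed by -0.189 in 4T1R1 (edgeR adjusted p = 0.00421) and by -0.187 in 4T1R2 (edgeR adjusted p = 0.00494), with a rise in all 3 populations. Src differed by -0.153 in 4T1R1 (edgeR adjusted p = 0.0335) and Akt1 by 0.114 in 4T1R2 (edgeR adjusted p = 0.0332). The Src and Akt1 calls were each lost in several other fits given above. Under total counts alone the Igf1r differences were -0.0401 and -0.118 and did not pass. Without the joined replicates of treated 4T1 the Erbb3 difference for 4T1R1 was 0.566. All of these differences rest on the 2 samples of 17-DMAG-treated 4T1.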

How the results depend on the processing

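Scaling by total counts alone moved the median of all genes by -0.115 in the 4T1 response, by 0.149 in the 4T1R1 difference and by 0.0689 in the 4T1R2 difference (log2). It called 7 members in the 4T1 response against 4 and 3 in the 4T1R1 response against 6. Over all 13507 genes it called 5517 in the 4T1 response against 4912 and 3673 in the 4T1R1 response against 3811. It turned the sign of Cdk4 (-0.103) and Src (-0.0368) in the 4T1 response, of Met in the 4T1R1 (0.0254) and 4T1R2 (-0.0196) responses, of Akt1 in the 4T1R2 response (-0.0433), of Akt2 (0.000912) and Cdk4 (0.0209) in untreated 4T1R1 and Akt2 in untreated 4T1R2 (0.0123), of Akt1 (0.14), Akt2 (0.114) and Cdk4 (0.0556) in the 4T1R1 difference, and of Cdk4 in the 4T1R2 difference (0.0218). Of these, Cdk4 in the 4T1 response and Akt1 in the 4T1R1 difference then passed. With at least 10 counts in every library, where Egfr gave no value, Cdk4 in untreated 4T1R1 (0.000273), Akt2 in untreated 4T1R2 (0.0012) and Akt1 in the 4T1R1 difference (0.00349) turned, as did Cdk4 in untreated 4T1R1 when only the groups compared were fitted (0.00469). The 4T1R2 response had 2 calls in place of 1 with 18 separate libraries or at least 10 counts. Over all genes 1497 and 1454 were called in these fits, against 1421. Beyond the scaling's own shift, the cause was not tested.

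With 1 library left out, the members called were 4 in the 4T1 response, 3 to 6 in 4T1R1 and 1 to 2 in 4T1R2, 3 to 5 and 4 to 5 in untreated 4T1R1 and 4T1R2 against 4T1, 5 to 6 between these, and 2 to 3 and 2 to 4 in the 2 differences. The 4T1R1 response had 3 without untreated replicate 2 or treated replicate 1 of 4T1R1, the 4T1R2 response 2 without untreated replicate 1 of 4T1 or untreated replicate 2 of 4T1R1, and untreated 4T1R1 against 4T1 had 3 without untreated replicate 1 or 3 of 4T1 or untreated replicate 3 of 4T1R1. With all libraries in, 36.4%, 28.2% and 10.5% of all genes were called in the responses. In the untreated comparisons 52.7%, 52.4% and 38.8% were called, and in the differences 18.3% and 17.8%. Where a library left in an arm of 1, it was assumed to vary like the others. Some values below the threshold changed sign in such fits. Egfr ran from -0.192 to 0.466 in the 4T1 response, from -1.02 to 0.202 between untreated 4T1R2 and 4T1R1 and from -0.118 to 1.02 in the 4T1R2 difference. Cdk4 ran from -0.0159 to 0.0304 in the 4T1 response and from -0.0334 to 0.0154 in untreated 4T1R1. Akt1 ran from -0.00771 to 0.015 in the 4T1R2 response and from -0.0303 to 0.00862 in the 4T1R1 difference. Akt2 ran from -0.0522 to 0.0147 in untreated 4T1R1, from -0.0367 to 0.0405 in untreated 4T1R2, from -0.0209 to 0.0657 between these and from -0.026 to 0.0562 in the 4T1R2 difference.

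Same-numbered replicates did not deviate together. Of 45 pairs the correlations ran from -0.404 to 0.396, 9 were over 0.1, and in 16 the correlation was above that with any other number. With the replicate number as a block over 18 libraries the members called were 4, 6 and 1 in the 3 responses, 5, 4 and 5 in the untreated comparisons, and 4 and 4 in the differences. The same 18 libraries without the block gave equal counts, Erbb2 included in both differences (0.202 and 0.213 with the block), except for 2 in the 4T1R2 response, where Erbb2 passed only without the block. Over all genes the fit with the block called 5542, 3836 and 1440 in the responses. It called 7123, 7096 and 5233 in the untreated comparisons, and 2795 and 2717 in the differences.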
